A study of Homo sapiens with 30 samples.

Results

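The genes described here encode the proteins of the cytosolic ribosome. They were taken by symbol: every row of the count table named RPL or RPS followed by a number, with or without a final A or X, together with RPLP0, RPLP1, RPLP2 and RPSA. This gave 77 of the 57373 genes in the table, 46 for the large subunit and 31 for the small subunit, and left out pseudogenes and paralogues whose symbol ends in L. RNA was measured in U2OS, a human osteosarcoma cell line, as counts per gene from stranded mRNA libraries, with 5 libraries in each of 6 groups. One pair of groups received a FOXP2 plasmid and CHIR99021: cells with dhelix FOXP2, which lacks residues 264 to 272, and cells with WT FOXP2. Another group received CHIR99021 alone. The remaining groups had dhelix FOXP2 alone, WT FOXP2 alone, and mock transfection. FOXP2 is a forkhead transcription factor. CHIR99021, called CHIR from here on, inhibits glycogen synthase kinase 3 and was used to activate WNT signalling; it was given at 5 µM from 72 h before transfection, and plasmid (500 ng) for 48 h. The genotype label of WT FOXP2 + CHIR replicate 1 does not say WT, and the library was put in its group by its title. All groups are the same cell line, and both FOXP2 forms are overexpressed from plasmids in cells with almost no FOXP2 RNA of their own. The labels do not say whether mock cells or cells with CHIR alone received an empty plasmid, so in each comparison of FOXP2 cells with cells without FOXP2 the effect of FOXP2 and that of plasmid DNA cannot be told apart.

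A ribosome joins a large subunit, which forms peptide bonds, to a small subunit, which reads the mRNA, and most of its proteins are needed in equal number. Messenger RNAs of these proteins are abundant and stable and share a start known as the 5′ terminal oligopyrimidine (TOP) motif, a C followed by an unbroken run of pyrimidines, through which their translation follows mTOR signalling. Surplus subunit proteins are degraded, and RPL5 and RPL11 when not built into ribosomes bind MDM2, which ties ribosome assembly to p53. In growing cells, MYC is known to raise transcription of ribosomal protein genes and of the assembly machinery.

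The starts of the genes that the results turn on are printed because the TOP start is the one sequence feature known to be shared by the family. Each line holds 10 bases before the annotated RefSeq start and 20 from it, on the gene's own strand, 5′ to 3′, in the GRCh38.p14 build, which is not the build of the counts. Capitals mark a C at the start and the pyrimidines that follow it without a break, where at least 4 follow.
RPS10, chr6:34426050-34426079, minus strand: catgctccttCCTTTCCagccccggtaccg
RPL36, chr19:5690285-5690314, plus strand: cggcgccagcCCTTCCgccacggccgtctc
RPL12, chr9:127451387-127451416, minus strand: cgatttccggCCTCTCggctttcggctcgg
RPL35, chr9:124861938-124861967, minus strand: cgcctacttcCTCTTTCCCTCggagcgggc
RPS18, chr6:33272065-33272094, plus strand: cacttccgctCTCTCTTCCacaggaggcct
RPL11, chr1:23691796-23691825, plus strand: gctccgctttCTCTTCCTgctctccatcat
RPLP2, chr11:809957-809986, plus strand: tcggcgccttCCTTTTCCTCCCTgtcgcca
RPLP0, chr12:120201092-120201121, minus strand: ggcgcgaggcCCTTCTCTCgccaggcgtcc
RPL28, chr19:55385922-55385951, plus strand: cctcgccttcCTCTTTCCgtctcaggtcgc
RPL3, chr22:39319604-39319633, minus strand: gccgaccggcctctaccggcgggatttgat
RPS29, chr14:49598691-49598720, minus strand: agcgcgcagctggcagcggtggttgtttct
RPS26, chr12:56041908-56041937, plus strand: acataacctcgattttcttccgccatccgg
RPL11 has 2 annotated starts, of which 1 is shown. RPL3 begins with a C but its run is 1 base short of the rule, and the annotated starts of RPS29 and RPS26 do not begin with a C. Of the 77 genes, 62 had an entry in the RefSeq table, and 46 of these 62 (74.2%) had a start with a C and at least 4 pyrimidines after it, against 5.14% of the 27305 genes in the table. Counted over starts instead of genes, the shares were 59.7% for the ribosomal protein genes and 4.07% of 35116 starts. The letters CTTTCC, searched on both strands within 25 bases either side of the start and able to overlap the run above, were found on the gene's strand in 21 of the 62 genes (33.9%), against 3.13% of all genes, and on the other strand in 1 gene (1.61%), against 2.59% of all genes. A match is a description of letters in a window, not of a bound factor.

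Libraries held 15755842 to 29466652 counts, and of the 77 genes 76 passed the filter on low counts and were tested among 18485 genes. A tested member held at least 134 counts in every library. FOXP2 RNA averaged 13467 CPM (counts scaled to a common library size) in dhelix FOXP2 + CHIR, 15283 in WT FOXP2 + CHIR, 0.503 in CHIR, 5314 in dhelix FOXP2, 7069 in WT FOXP2 and 0.897 in mock cells. AXIN2, a target of WNT signalling, averaged 62.4 CPM in dhelix FOXP2 + CHIR, 49.1 in WT FOXP2 + CHIR, 145 in CHIR, 9.98 in dhelix FOXP2, 8.10 in WT FOXP2 and 20.9 in mock cells. Libraries of a group differed by more than counting error in every group, and 3 libraries stood apart from their group: CHIR replicate 1, dhelix FOXP2 replicate 5 and WT FOXP2 + CHIR replicate 4. The chi-square per gene between libraries of a group reached 35.02 in CHIR, 11.7 in dhelix FOXP2 and 7.75 in WT FOXP2 + CHIR, and between 2.84 and 3.90 in the other groups. The labels call the cells epithelial, and 5 of 6 epithelial markers passed the filter: group means were 169 to 480.3 CPM for KRT18 and 170.0 to 212 CPM for KRT8, while KRT19 was near 0. Of 5 mesenchymal markers 4 passed. Of 4 blood markers 2 passed, CD3D and PTPRC, and HBB had no count in any library. The labels call the libraries biological replicates without saying that they are separate cultures, so p-values measure the spread between these libraries. In bulk RNA, fewer cells of a kind and less RNA per cell cannot be told apart.

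Ribosomal protein mRNAs were most abundant in cells with CHIR alone. Together they took 5.18% ± 0.0607 of all counts in dhelix FOXP2 + CHIR, 4.89% ± 0.114 in WT FOXP2 + CHIR, 6.30% ± 0.265 in CHIR, 5.27% ± 0.0725 in dhelix FOXP2, 4.59% ± 0.135 in WT FOXP2 and 4.89% ± 0.138 in mock cells (SD, n = 5 each). Every CHIR library (5.87% to 6.51%) lay above every library of the other groups, the lowest of them being CHIR replicate 1. As a level less weighted to the highest genes, the mean log2 CPM over the 76 tested genes was 9.001 in dhelix FOXP2 + CHIR, 8.91 in WT FOXP2 + CHIR, 9.27 in CHIR, 9.06 in dhelix FOXP2, 8.89 in WT FOXP2 and 8.76 in mock cells. On this scale the groups ran from CHIR down through dhelix FOXP2, dhelix FOXP2 + CHIR, WT FOXP2 + CHIR and WT FOXP2 to mock. Neighbours in that order did not overlap except WT FOXP2 + CHIR (8.85 to 8.96) and WT FOXP2 (8.84 to 8.94). The order of the low groups depends on scaling: mock cells had the lowest mean log2 CPM, whose library sizes are TMM-scaled (trimmed mean of M values), but a higher share of counts than WT FOXP2 cells, since the TMM factor averaged 0.951 in WT FOXP2 and 1.07 in mock cells. Of the 76 genes, 66 were highest in CHIR and 47 were lowest in mock. A gene's highest group mean was 1.10 to 2.08 times its lowest, with a median of 1.49.

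**Figure D1:**
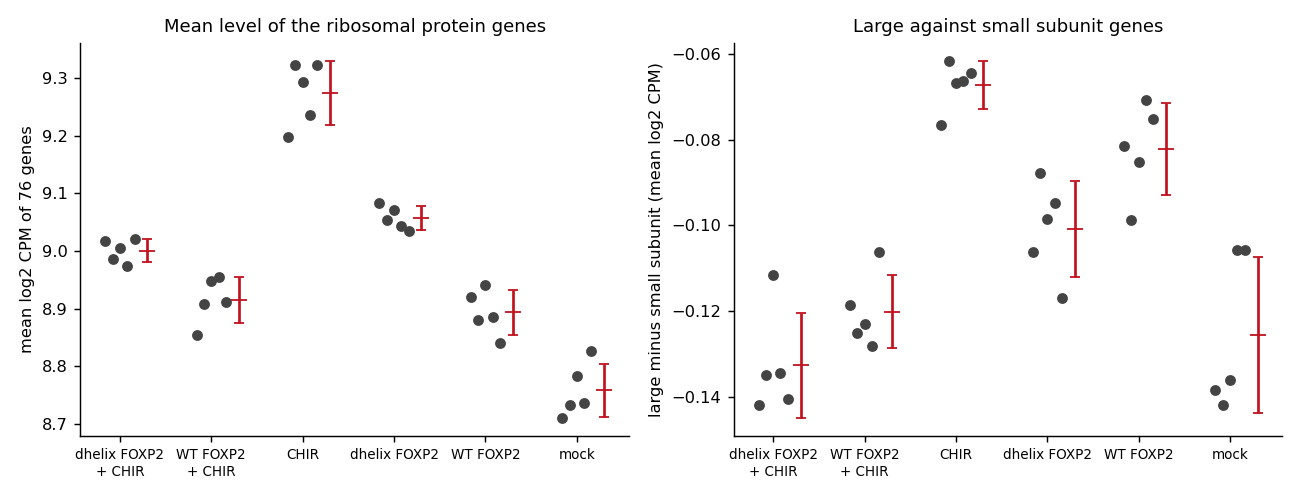
Mean log2 CPM of the 76 tested genes (left) and large minus small subunit (right) in each of the 30 libraries, by group, with the group mean and SD. At left, CHIR libraries are above all others, at a mean log2 CPM of 9.20 to 9.32, and mock libraries have the lowest, 8.71 to 8.83. At right, the CHIR range (-0.076 to -0.062) overlaps that of WT FOXP2 (-0.099 to -0.071).

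Marker sums also differed between the groups. Summed over the 4 tested mesenchymal markers of 5, the level averaged 2652 CPM in dhelix FOXP2 + CHIR, 2268 in WT FOXP2 + CHIR, 6660 in CHIR (6299 to 6988), 3280 in dhelix FOXP2, 3947 in WT FOXP2 and 4491 in mock cells (4410 to 4568). Summed over the 4 tested osteoblast markers of 7, it averaged 249 CPM in dhelix FOXP2 + CHIR, 227 in WT FOXP2 + CHIR, 373 in CHIR, 274 in dhelix FOXP2, 268 in WT FOXP2 and 1381 in mock cells (1307 to 1427), with SP7, BGLAP and IBSP near 0. The mesenchymal sum was highest in CHIR cells, and the osteoblast sum was highest in mock cells. FN1 (4809 CPM in CHIR, 2350 in mock) and SNAI2 (26.9, 12.1) were higher in CHIR cells, while VIM (1686, 1966) and CDH2 (138, 162) were lower. COL1A1 made most of the osteoblast sum in mock cells (1306 CPM, against 256 in CHIR). RUNX2 was higher in CHIR than in mock cells (108 and 58.2 CPM), while SPP1 and ALPL were lower. With either FOXP2 form alone, 2 osteoblast markers rose and 2 fell relative to mock. Summed over the 5 tested epithelial markers of 6, the level averaged 602 CPM in dhelix FOXP2 + CHIR, 582 in WT FOXP2 + CHIR, 391 in CHIR, 673 in dhelix FOXP2, 661 in WT FOXP2 and 394 in mock cells. This sum was higher in all 4 groups with FOXP2, mostly through KRT18 (374, 372, 175, 448, 480 and 169 CPM in the same order). Relative to mock, 2 of the 5 markers rose and 2 fell with dhelix FOXP2, and 2 rose and 3 fell with WT FOXP2. Relative to CHIR alone, 2 rose and 1 fell with dhelix FOXP2 and CHIR, and 3 rose and 1 fell with WT FOXP2 and CHIR. The 2 tested blood markers of 4 summed to 3.87 CPM in dhelix FOXP2 + CHIR, 2.64 in WT FOXP2 + CHIR, 1.95 in CHIR, 5.64 in dhelix FOXP2, 2.24 in WT FOXP2 and 0.369 in mock cells; CD3D made most of it in the FOXP2 groups (5.49 CPM in dhelix FOXP2, against 0.0687 in mock cells). Their part in the ribosomal protein results was not tested.

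With CHIR alone, nearly the whole family rose over mock cells. RPL11, a large-subunit protein that can bind MDM2 (ENSG00000142676), had 992, 1016, 1005, 999.8 and 1006 CPM in CHIR cells, against 600.1, 589, 618, 563 and 631 CPM in mock cells. All 5 CHIR libraries were above all 5 mock libraries, and RPL11 rose by 0.74 ± 0.03 on the log2 scale (SE; edgeR quasi-likelihood test, adjusted p = 4.82e-22). RPL12, which sits at the base of the stalk that recruits translation factors (ENSG00000197958), had 987, 959, 952, 928 and 951 CPM in CHIR cells, against 531, 533, 556, 533 and 567 CPM in mock cells. The groups were again far apart, with a log2 change of 0.81 ± 0.03. RPS6, the small-subunit substrate of S6 kinase (ENSG00000137154), had 1182, 1112, 1113, 1099.9 and 1104 CPM in CHIR cells, against 712, 700.4, 740.3, 689.7 and 743 CPM in mock cells. Its highest value was in CHIR replicate 1, and no libraries of the groups overlapped (0.65 ± 0.03).

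By edgeR's quasi-likelihood test at an adjusted p under 0.05 over all genes, 75 of the 76 genes rose with CHIR and none fell, with a median log2 change of 0.53; of all 18485 genes tested, 38.8% rose and 35.3% fell, with a median of 0.02. The libraries of the groups did not overlap for 67 genes, all higher with CHIR, against 29.9% of all genes higher and 27.8% lower. At an unadjusted p under 0.05 and by DESeq2's Wald test the count of genes that fell was also 0, and without the 3 libraries that stood apart 75 rose and 0 fell. RPL36A changed most (0.91 ± 0.09), followed by RPS10 (0.88 ± 0.05), a protein of the small subunit's head, RPL36 (0.85 ± 0.05), RPL26 (0.82 ± 0.06), which also binds p53 mRNA, and RPL12. RPL5, the partner of RPL11 in the particle that carries the smallest ribosomal RNA, rose by 0.68. RPL41, the shortest protein of the ribosome, rose by 0.65, RPL22 by 0.60, RPS27A, made as a fusion with ubiquitin, by 0.49, and RPS4X by 0.47. RPL13A, RPS19, the gene most often mutated in Diamond-Blackfan anaemia, and RPS3, which lines the mRNA entry, rose by 0.44, 0.44 and 0.43. The smallest rises were those of RPLP0 (0.24 ± 0.04), RPSA (0.21 ± 0.04), RPL10 (0.21 ± 0.04), a protein added late in subunit maturation, and RPS29 (0.19 ± 0.04). RPL28 did not pass the test (0.05 ± 0.09, adjusted p = 0.607).

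The stalk proteins differed in how far they rose. RPLP0, the anchor of the stalk (ENSG00000089157), had 2021, 2568, 2499.9, 2415 and 2562 CPM in CHIR cells, against 1928, 2017, 2050.3, 2094 and 2147 CPM in mock cells. CHIR replicate 1 lay within the mock range and the other 4 CHIR libraries above it. RPLP1 rose by 0.46 and RPLP2 by 0.47, between the lower quartile (0.42) and the median (0.53) of the family, and RPL12, at the base of the stalk, was among the 5 largest rises.

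**Figure D2:**
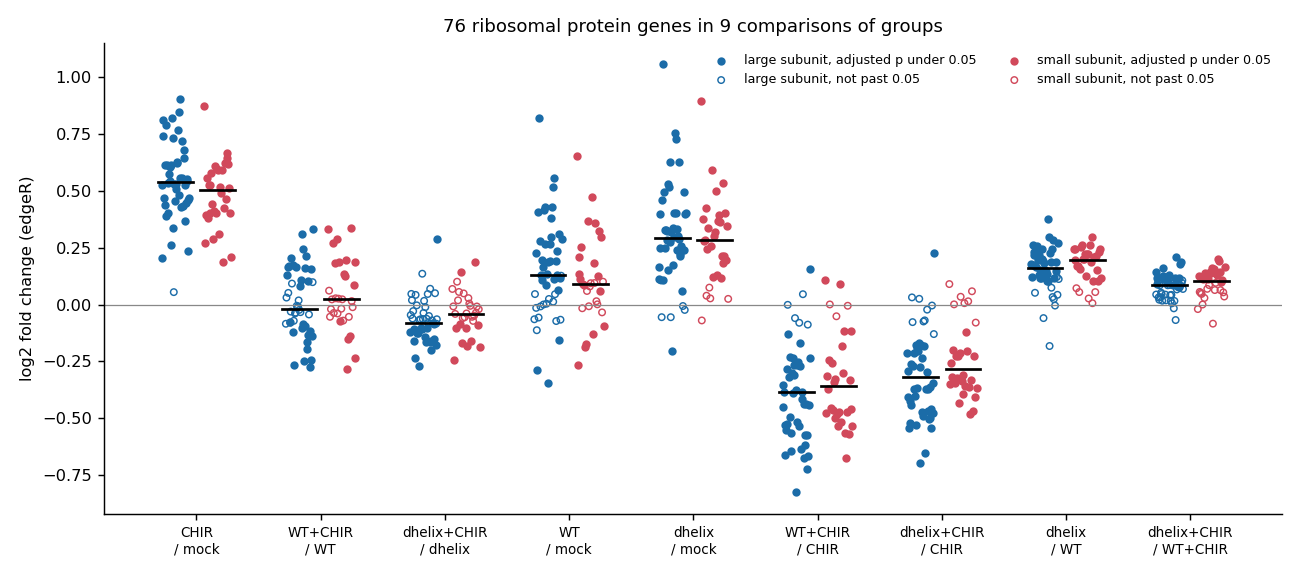
Log2 change of each of the 76 tested genes in 9 comparisons of groups, large-subunit genes in blue and small-subunit genes in red, filled where the adjusted p is under 0.05, with a bar at each median. The medians are 0.53 for CHIR over mock, -0.39 for WT FOXP2 + CHIR over CHIR and -0.30 for dhelix FOXP2 + CHIR over CHIR, and near 0 for CHIR in cells with either FOXP2.

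In cells without CHIR, dhelix FOXP2 went with higher levels of most ribosomal protein genes than mock, and WT FOXP2 with smaller changes in both directions. With dhelix FOXP2, 65 genes rose and 1 fell relative to mock, with a median log2 change of 0.29; of all genes, 39.6% rose and 40.9% fell. With WT FOXP2, 43 rose and 8 fell, with a median of 0.11, against 39.9% and 41.7% of all genes. The libraries did not overlap for 64 genes higher and 1 lower with dhelix FOXP2 (36.4% and 36.8% of all genes), and for 36 higher and 6 lower with WT FOXP2 (36.2% and 36.8%). The WT FOXP2 result depends on scaling: with libraries scaled to total counts alone, 20 rose and 31 fell and the median was -0.05, while for dhelix FOXP2 54 rose and 8 fell. Without the 3 libraries that stood apart the counts were 67 and 1 with dhelix FOXP2 and 50 and 12 with WT FOXP2.

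The rises in FOXP2 cells were led by proteins of both subunits. RPL17, at the exit of the peptide tunnel, rose by 1.06 ± 0.06 with dhelix FOXP2 and by 0.82 ± 0.07 with WT FOXP2 relative to mock, RPS10 by 0.90 ± 0.05 and 0.65 ± 0.05, and RPL38 by 0.63 ± 0.05 and 0.56 ± 0.05. RPL35 and RPL36 rose by 0.76 and 0.73 with dhelix FOXP2, and RPL36A and RPS26 by 0.52 and 0.47 with WT FOXP2. RPL3, a large-subunit protein near the peptidyl transferase centre (ENSG00000100316), had 1322, 1277, 1315, 1288 and 1260.0 CPM in dhelix FOXP2 cells and 1184, 1163, 1178, 1171 and 1156 CPM in WT FOXP2 cells, against 1450.0, 1453, 1499.6, 1486 and 1557 CPM in mock cells. Every library with FOXP2 was below every mock library. RPL3 was the gene that fell with dhelix FOXP2 (-0.20 ± 0.03, adjusted p = 2.27e-07) and the one with the largest fall with WT FOXP2 (-0.35 ± 0.03, adjusted p = 9.5e-13). Others that fell with WT FOXP2 were RPL13A (-0.29 ± 0.05), RPS19 (-0.19 ± 0.05), RPS2 (-0.17 ± 0.06), RPL7A (-0.16 ± 0.04), RPS27 (-0.13 ± 0.04) and RPSA (-0.09 ± 0.04); RPL7A and RPS27 are named after their values were seen. RPSA lost the call under 9 of 20 alternatives (adjusted p up to 0.184), 6 of them leaving out a single library, and RPS2 lost it without WT FOXP2 replicate 2 (adjusted p = 0.0529). With dhelix FOXP2, RPL28 (-0.06), RPL13A (-0.06) and RPLP0 (-0.02) did not pass the test.

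When CHIR was present, either FOXP2 form went with lower levels of most of the family than CHIR alone. RPL11 had 813, 797, 812, 806 and 866 CPM in dhelix FOXP2 + CHIR and 743, 796, 753, 795 and 757 CPM in WT FOXP2 + CHIR, against 992, 1016, 1005, 999.8 and 1006 CPM in CHIR cells. None of the FOXP2 libraries reached the CHIR range, nor the mock range below it. RPL11 fell by 0.29 ± 0.03 (adjusted p = 1.45e-10) with dhelix FOXP2 and by 0.38 ± 0.03 (adjusted p = 1.05e-13) with WT FOXP2. Across the family, 60 genes fell and 1 rose with dhelix FOXP2 (median -0.30; of all genes 38.9% fell and 37% rose), and 65 fell and 3 rose with WT FOXP2 (median -0.39; 40.2% and 38.2%). The libraries did not overlap for 49 genes with dhelix FOXP2 and for 55 with WT FOXP2, all lower than CHIR, against 28.3% and 30.4% of all genes (higher: 28.3% and 30.2%). Without the 3 libraries that stood apart, 63 fell and 2 rose with dhelix FOXP2, and 66 fell and 2 rose with WT FOXP2.

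RPL3 showed the largest fall in both comparisons. It had 1295, 1239.6, 1277, 1241 and 1247 CPM in dhelix FOXP2 + CHIR and 1149, 1127, 1165, 1164 and 1152 CPM in WT FOXP2 + CHIR, against 1830.3, 2146, 2046, 2051 and 2138 CPM in CHIR cells. The CHIR libraries were well above, CHIR replicate 1 lowest among them; the log2 changes were -0.70 ± 0.03 and -0.83 ± 0.03. Next came RPL36A (-0.65), RPL12 (-0.54), RPL7A (-0.54) and RPL23 (-0.53) with dhelix FOXP2, and RPL7A (-0.72 ± 0.04), RPL39 (-0.68), which lines the peptide tunnel, RPS3A (-0.67) and RPL9 (-0.67) with WT FOXP2.

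RPLP2, an acidic stalk protein (ENSG00000177600), went the other way. It had 475, 464, 478, 431 and 455 CPM in dhelix FOXP2 + CHIR and 415, 417, 460.4, 458 and 445 CPM in WT FOXP2 + CHIR, against 335, 440.3, 407, 368 and 419 CPM in CHIR cells. The ranges of CHIR and both FOXP2 groups overlapped, and CHIR replicate 1 was the lowest library. RPLP2 was the 1 gene that rose with dhelix FOXP2 (0.23 ± 0.05, adjusted p = 2.6e-04). With WT FOXP2 the 3 that rose were RPLP2 (0.16 ± 0.05, adjusted p = 0.0076), RPS10 (0.11 ± 0.04, adjusted p = 0.0226) and RPS26 (0.09 ± 0.04, adjusted p = 0.0452). The call of RPS10 was lost without CHIR replicate 2 (0.10, adjusted p = 0.0621) and with no filter on low counts (adjusted p = 0.0720). That of RPS26 was lost without WT FOXP2 + CHIR replicate 4 (0.07, adjusted p = 0.133), without the 3 libraries that stood apart (adjusted p = 0.0838) and in a fit of the compared groups (adjusted p = 0.0609).

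Between FOXP2 cells that had CHIR from before transfection and FOXP2 cells without CHIR, changes were small. Among genes called, they were mostly falls in dhelix FOXP2 cells and went in both directions in WT FOXP2 cells. In dhelix FOXP2 cells 3 genes rose and 29 fell with CHIR (median -0.06; of all genes 34.1% rose and 29.1% fell), and in WT FOXP2 cells 26 rose and 19 fell (median -0.01; 34.8% and 30.2%). The libraries did not overlap for 3 genes higher and 29 lower in dhelix FOXP2 cells (28% and 25.3% of all genes) and for 14 higher and 12 lower in WT FOXP2 cells (28.1% and 25.7%). In either direction, 63.2% of all genes were called in dhelix FOXP2 cells. Scaled to total counts, the numbers that rose and fell were 8 and 18 in dhelix FOXP2 cells and 40 and 6 in WT FOXP2 cells. Without the 3 libraries that stood apart they were 3 and 47, and 24 and 29. In both cell groups RPLP2 (0.29 with dhelix and 0.33 with WT FOXP2) rose, and RPL23, another large-subunit protein that can bind MDM2 (-0.27 and -0.27), fell. RPS19 also rose in both (0.14 and 0.29), though with dhelix FOXP2 the call was lost without dhelix FOXP2 + CHIR replicate 2 (adjusted p = 0.103), with no filter (adjusted p = 0.367) and under TMM without these genes (adjusted p = 0.0544). FOXP2 RNA itself rose with CHIR, by 1.34 ± 0.09 in dhelix FOXP2 cells and by 1.11 ± 0.09 in WT FOXP2 cells, and its part in these results was not tested.

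The difference between the CHIR response with FOXP2 and the CHIR response in mock cells was tested as an interaction. It was below 0 at an adjusted p under 0.05 for 75 of 76 genes with dhelix FOXP2 (median -0.58) and for 74 with WT FOXP2 (median -0.49), and above 0 for none; of all genes it was below 0 for 33.7% and 34.9% and above 0 for 31.2% and 30.7%. At an unadjusted p under 0.05 and by DESeq2's Wald test it was likewise above 0 for none. Scaling to total counts moved these medians to -0.44 and -0.29. The strongest differences were those of RPL17 (-1.03), RPL36A (-0.99) and RPL26 (-0.88) with dhelix FOXP2 and of RPL36A (-1.15), RPL17 (-0.82) and RPL5 (-0.81) with WT FOXP2. RPL5 (ENSG00000122406) had 943, 913, 943, 936 and 918 CPM in dhelix FOXP2 + CHIR, against 990.3, 983, 988, 989 and 963 CPM in dhelix FOXP2 cells. In cells without FOXP2 it had 1455, 1285, 1257, 1282 and 1294 CPM with CHIR, against 789, 824, 821, 812 and 859.7 CPM in mock cells. CHIR thus went with lower RPL5 in dhelix FOXP2 cells and higher RPL5 in mock cells, with no overlap in either pair of groups. The genes whose response did not pass this test were RPL28 with dhelix FOXP2 (0.08, adjusted p = 0.608) and RPL28 (-0.06, adjusted p = 0.694) and RPLP2 (-0.13, adjusted p = 0.116) with WT FOXP2. All these comparisons share groups, so their counts are not independent of each other.

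**Figure D3:**
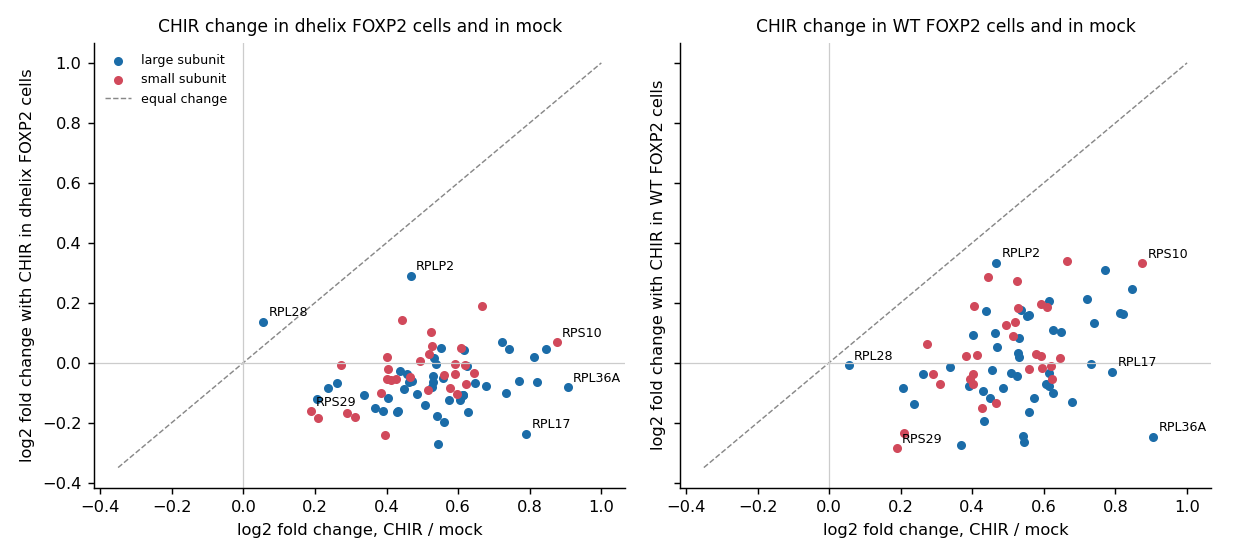
Log2 change with CHIR in dhelix FOXP2 cells (left, vertical axis) and in WT FOXP2 cells (right, vertical axis) against the change with CHIR in mock cells (horizontal axis), 1 point per gene, with a dashed line at equal change. All points but RPL28 at left lie below the line, and the vertical spread is about 0, from -0.27 to 0.29 at left and from -0.28 to 0.34 at right.

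Levels were higher with dhelix FOXP2 than with WT FOXP2. In cells without CHIR, 61 genes rose and none fell with dhelix relative to WT FOXP2, with a median log2 change of 0.18; of all genes 16.9% rose and 18.7% fell. The libraries did not overlap for 57 genes, all higher with dhelix, against 13.5% of all genes higher and 16.5% lower. With CHIR, 33 rose and none fell (median 0.09), against 16.6% and 14% of all genes, or 30.6% in either direction; the libraries did not overlap for 30 genes, all higher with dhelix (12.9% of all genes higher and 11.6% lower). DESeq2's Wald test called no fall in either comparison. In a fit of only the compared groups, 67 rose and 1 fell without CHIR (45.1% of all genes called). With CHIR, 38 rose and 2 fell in such a fit (36.7%). In the main fit, at an unadjusted p under 0.05, RPL36A fell without CHIR (-0.18) and RPS26 with CHIR (-0.08). Without the 3 libraries that stood apart 66 rose without CHIR and 42 with it, and without WT FOXP2 + CHIR replicate 1, the library whose genotype label leaves out WT, the calls with CHIR numbered 18. RPL35, near the exit of the peptide tunnel (ENSG00000136942), had 330.0, 335, 323, 314 and 324 CPM in dhelix FOXP2 cells, against 264, 219, 281, 260.2 and 227 CPM in WT FOXP2 cells. The groups did not overlap, and the WT FOXP2 libraries spread more widely. RPL35 had the largest difference (0.38 ± 0.05, adjusted p = 2.98e-07), followed by RPL36 (0.30), RPS28 (0.30), RPL41 (0.28) and RPLP1 (0.27).

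RPL5 (0.02), RPS29 (0.01), RPL7 (-0.00), RPL28 (-0.06) and RPL36A (-0.18 ± 0.08) were lowest in the comparison of dhelix with WT FOXP2 and did not pass. With CHIR the largest differences of dhelix over WT FOXP2 were those of RPL39 (0.21), RPS3 (0.20), RPS3A (0.19), RPL9 (0.19) and RPL7A (0.18). The comparison is not one of equal doses of RNA. FOXP2 RNA was lower with dhelix than with WT FOXP2 in cells without CHIR (-0.41 ± 0.08, adjusted p = 3.38e-04) and differed by -0.18 ± 0.08 with CHIR (adjusted p = 0.106). Depth also differed, with a mean of 27163406 counts in dhelix FOXP2 and 21522858 in WT FOXP2 libraries. The part of FOXP2 level and depth in these differences was not tested. Whether the CHIR response differs between dhelix and WT FOXP2 cells was tested directly, and 8 genes were lower and 1 higher. Of all genes 5.29% were lower and 8.92% higher, together 14.2%. The test was led by RPL35 (-0.37 ± 0.07, adjusted p = 4.51e-04) and RPS10 (-0.26 ± 0.06, adjusted p = 0.00316). Under total counts 26 were lower and none higher (13.6% of all genes in either direction). Without the 3 libraries that stood apart 26 were lower and 1 higher (20.6%). Without WT FOXP2 + CHIR replicate 1 there were 21 in all.

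The subunits moved together where the family's change was large. With CHIR alone 45 of 46 large-subunit genes rose (median 0.54) and 30 of 30 small-subunit genes (median 0.50). With dhelix FOXP2 relative to mock the medians were 0.29 for the large and 0.28 for the small subunit, and with WT FOXP2 0.13 and 0.09. Against CHIR alone they were -0.32 and -0.28 with dhelix FOXP2 and -0.39 and -0.36 with WT FOXP2, and for dhelix against WT FOXP2 without CHIR 0.16 and 0.20. The interaction medians were -0.60 and -0.49 with dhelix FOXP2 and -0.53 and -0.43 with WT FOXP2. Within each library, the mean log2 CPM of large-subunit genes less that of small-subunit genes lay between -0.142 and -0.112 in dhelix FOXP2 + CHIR, -0.128 and -0.106 in WT FOXP2 + CHIR, -0.076 and -0.062 in CHIR, -0.117 and -0.088 in dhelix FOXP2, -0.099 and -0.071 in WT FOXP2, and -0.142 and -0.106 in mock cells. CPM is not per length, so these differences are read only between groups. The CHIR range lay above those of mock and of both groups with FOXP2 and CHIR, and overlapped that of WT FOXP2 but not that of dhelix FOXP2. The shift of large against small between any of these group means was under 0.1 on the log2 scale. This was small beside the shared changes with CHIR alone, and with FOXP2 and CHIR against CHIR alone. It was not small beside those with CHIR in FOXP2 cells. There the large and small subunit medians were -0.08 and -0.04 with dhelix FOXP2 and -0.02 and 0.02 with WT FOXP2.

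A few genes did not follow the family. Across the 30 libraries the correlation of a gene's log2 CPM with the mean of the others had a median of 0.854, 22 of 76 were over 0.9, and 3 were under 0.5, namely RPL28 (0.173), RPS29 (0.391) and RPS26 (0.410). These coefficients share library scaling and are a description. RPL28 (ENSG00000108107) had 501, 467, 494, 422 and 425 CPM in dhelix FOXP2 + CHIR, 398, 407, 484, 429.6 and 459.7 in WT FOXP2 + CHIR, 317, 549, 514, 395 and 493 in CHIR, 413, 449, 428, 398 and 413 in dhelix FOXP2, 441, 405, 478, 449.6 and 417 in WT FOXP2, and 419.8, 423, 424, 449.7 and 468 in mock cells. All groups overlapped, and the CHIR libraries spread over the whole range, replicate 1 lowest. Leaving out single libraries moved its log2 change with CHIR between -0.03 and 0.12, with no call.

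RPS29 (ENSG00000213741), a small-subunit protein, had 421, 415, 442, 409 and 417 CPM in dhelix FOXP2 + CHIR, 379, 371, 395, 413 and 365 in WT FOXP2 + CHIR, 404, 437, 411, 399 and 431 in CHIR, 488, 464, 469, 469 and 463 in dhelix FOXP2, 472, 480.2, 503, 464 and 424 in WT FOXP2, and 337, 374, 372, 361 and 385 in mock cells. Its highest libraries were in the groups with FOXP2 and no CHIR, which overlapped with dhelix FOXP2 + CHIR and CHIR through 1 WT FOXP2 library, and its rise with CHIR alone lost the call under total counts (0.08, adjusted p = 0.0627). RPS10 (ENSG00000124614) lay between 31.0 and 43.3 CPM in every library with CHIR or FOXP2, against 21.2, 20.4, 21.1, 19.6 and 19.9 CPM in mock cells, without overlap. The read-through rows that share exons with named genes were nearly empty: RPS10-NUDT3 held 26 counts over all libraries, RPL17-C18orf32 94 and RPL36A-HNRNPH2 5. Their partners were low for the family: RPS10 averaged 34.8 CPM, RPL17 31.1 and RPL36A 11.3, against a median of 599 over the tested genes. Whether reads in shared exons were left out of both rows is not known, and the near-empty rows cannot decide it. Changes of these genes may therefore rest on part of their reads. The gene closest to the others was RPS18 (0.967), named after its values were seen. It had 761, 773, 763, 776 and 818 CPM in dhelix FOXP2 + CHIR, 663, 737, 704, 734 and 693 in WT FOXP2 + CHIR, 999, 996, 942, 957 and 973 in CHIR, 876, 809, 835, 806 and 799 in dhelix FOXP2, 719.9, 691, 703, 685 and 664 in WT FOXP2, and 611, 661, 672, 626 and 692 in mock cells.

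**Figure D4:**
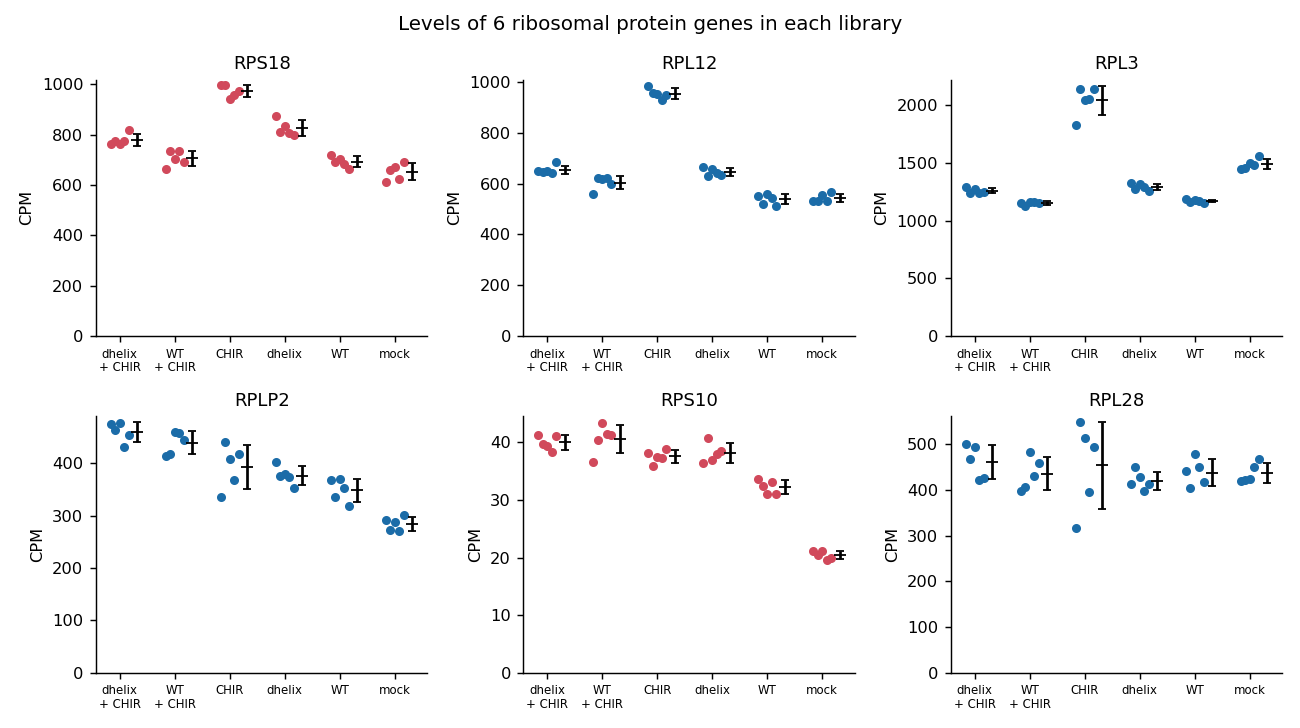
CPM of RPS18, RPL12, RPL3, RPLP2, RPS10 and RPL28 in each library by group, with mean and SD (n = 5). RPS18 and RPL12 peak in CHIR, RPL3 is lower in every group with FOXP2 than in mock, RPLP2 is highest in dhelix FOXP2 + CHIR, RPS10 is low in mock alone (19.6 to 21.2 CPM), and the groups of RPL28 overlap.

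Ribosomal protein genes have many processed pseudogenes: 861 rows of the table were named as pseudogenes of these genes, and 74 of the 77 had at least 1. Their counts came to a median of 0.209% of the parent gene's, at most 18.02%. Adding them to the parent left the median change with CHIR at 0.53 and moved no gene by more than 0.17. Genes with the C and pyrimidine run at the annotated start (46) and those without it (16) had medians of 0.54 and 0.53 for CHIR over mock, -0.39 and -0.32 for WT FOXP2 + CHIR over CHIR, -0.30 and -0.23 for dhelix FOXP2 + CHIR over CHIR, and 0.19 and 0.13 for dhelix over WT FOXP2.

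Genes that build or feed the ribosome were compared with its proteins. With CHIR alone all 46 tested assembly factors rose (median 1.09), among them RRP12 (2.18 ± 0.05) and NOP16 (1.75 ± 0.05), as did 13 of 14 genes of RNA polymerase I and its factors (0.77), all 12 host genes of small nucleolar RNAs (0.96) and 16 of 17 translation factors and related TOP mRNAs (0.53). Of all genes, 38.8% rose and 35.3% fell. UBTF, which opens the ribosomal RNA genes, fell by 0.22 ± 0.03, and EIF3F, a subunit of an initiation factor, fell by 0.13 ± 0.04. With FOXP2 alone the assembly factors rose too, 45 of 46 with dhelix FOXP2 (median 1.22) and 45 of 46 with WT FOXP2 (1.40) relative to mock, DDX47 falling in both. RRP12 rose by 2.57 ± 0.05 and 2.85 ± 0.05, and CD3EAP, a subunit of RNA polymerase I, by 1.77 ± 0.04 and 1.87 ± 0.04. With either form, 12 RNA polymerase I genes rose and 1 fell, and all 12 small nucleolar RNA hosts rose. Translation factors were mixed: 10 rose and 7 fell with dhelix FOXP2 (0.19), and 9 rose and 6 fell with WT FOXP2 (0.23). Of all genes, 39.6% rose and 40.9% fell with dhelix FOXP2, and 39.9% and 41.7% with WT FOXP2.

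In cells with CHIR the lists went in different directions. Relative to CHIR alone, 37 assembly factors rose and 3 fell with dhelix FOXP2 (median 0.35), and 43 rose and 2 fell with WT FOXP2 (0.48). The translation factors went with the ribosomal proteins instead: 2 rose and 13 fell with dhelix FOXP2 (-0.26), and 2 rose and 14 fell with WT FOXP2 (-0.28). The other lists were mixed: 5 RNA polymerase I genes rose and 4 fell with dhelix FOXP2 (0.06), and 9 rose and 3 fell with WT FOXP2 (0.17). Of the small nucleolar RNA hosts, 4 rose and 6 fell with dhelix FOXP2 (-0.12), and 6 rose and 2 fell with WT FOXP2 (0.22). Of all genes, 37% rose and 38.9% fell with dhelix FOXP2, and 38.2% and 40.2% with WT FOXP2. EIF4B, which helps the helicase of initiation, fell by 0.95 ± 0.03 and 1.06 ± 0.03, and EEF1A1, the elongation factor that delivers tRNA, by 0.64 ± 0.04 and 0.76 ± 0.04. For dhelix against WT FOXP2 without CHIR, 37 of 46 assembly factors fell (median -0.18, UTP20 at -0.39 ± 0.04), while 61 ribosomal protein genes rose. Of all genes, 16.9% rose and 18.7% fell there. The difference between the lists was not tested. MYC RNA averaged 127 CPM in dhelix FOXP2 + CHIR, 149 in WT FOXP2 + CHIR, 90.8 in CHIR, 230 in dhelix FOXP2, 267 in WT FOXP2 and 40.3 in mock cells. MYC rose by 1.17 ± 0.05 with CHIR alone relative to mock, was lowest in mock cells, and was higher in every FOXP2 group than in CHIR cells. Its part in the ribosomal protein results was not tested.

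**Figure D5:**
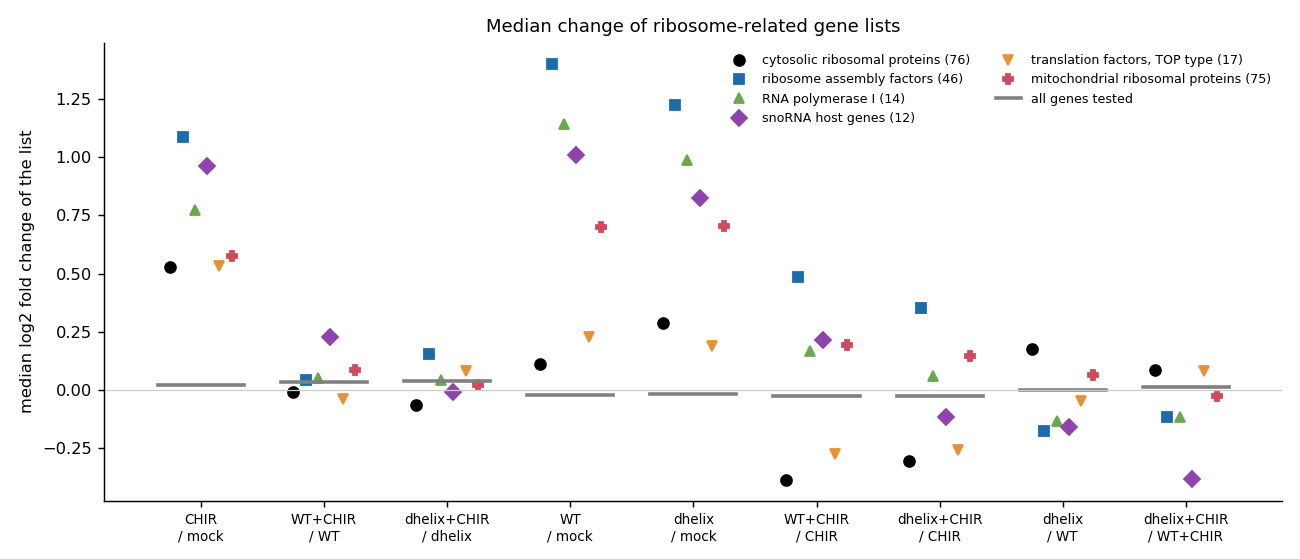
Median log2 change of the ribosomal protein genes and of the other ribosome-related lists in each comparison. For CHIR over mock the ribosomal proteins, assembly factors, RNA polymerase I genes, small nucleolar RNA hosts and translation factors have medians of 0.53 or more, and for the FOXP2 groups with CHIR over CHIR alone the assembly factors are above 0 (0.35 and 0.48) and the ribosomal proteins below (-0.30 and -0.39).

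Ribosomal proteins whose symbols fall outside the pattern, GNB2L1 (the scaffold also called RACK1) and FAU, made as a fusion with a ubiquitin-like protein, rose with CHIR alone, by 0.52 and 0.55. With CHIR present, FAU rose by 0.33 ± 0.06 with dhelix FOXP2 and by 0.28 ± 0.06 with WT FOXP2, and GNB2L1 fell by 0.22 ± 0.04 and 0.27 ± 0.04. Among the 4950 other genes with a mean of at least 50 CPM, those whose log2 CPM followed the family's mean most closely over the 30 libraries were PCBD1 (Pearson r 0.963), SSR4 (0.940), SSR2 (0.932), MTCH2 (0.931) and AHCY (0.919). PCBD1 averaged 74.7 CPM in dhelix FOXP2 + CHIR, 68.4 in WT FOXP2 + CHIR, 99.6 in CHIR, 77.5 in dhelix FOXP2, 71.9 in WT FOXP2 and 60.6 in mock cells.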

How the data were processed

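RNA of U2OS cells (6 groups of 5 libraries) was sequenced from stranded mRNA libraries in paired reads on 2 flow cells, per the labels' protocols. The authors deposited whole-number counts per gene, not normalised. Per the submitters' processing notes, STAR 2.6.1a, featureCounts, Subread and DESeq2 were used with hg19. How strand was handled, which annotation was used, and if fragments or single reads were counted is not given in those sources, so antisense neighbours and near-identical copies are uncertain. All 30 libraries entered 1 fit in edgeR 4.0.16 (R 4.3.3): TMM scaling, edgeR's own expression filter (18485 genes kept), glmQLFit with robust estimates, glmQLFTest for 9 pairs of groups and 3 interactions, and Benjamini-Hochberg adjustment over all genes tested, with a threshold of 0.05. Positive log2 changes mean higher in the group named first. A standard error is the absolute log2 change over the square root of F. CPM uses TMM-scaled library sizes, and log2 CPM adds a prior count of 2. The common biological coefficient of variation was 5.62%. Scripts were tested on simulated data.

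The genes and lists were chosen with earlier results of these data known. Named genes are the 5 highest and 5 lowest log2 changes in each pair (3 and 3 in an interaction), 15 members named for their roles, members without a call where nearly all were called, and the largest changes of the other lists. Alternatives were other scalings (DESeq2 1.42.0 size factors, total counts, TMM without these genes or without FOXP2), filters, DESeq2's Wald test, only the groups compared, a replicate block and leaving out libraries. Start sequences are RefSeq's, GRCh38.p14. RPL23, RPL23A, RPL30, RPL37, RPL5, RPL7, RPL8, RPS15A, RPS2 and RPS20 were among those with no entry. Values of a few genes are not reported here.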

Additional observations from a re-analysis of the deposited data

Results flagged for a closer look

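Of 90 group and value combinations tested for 1 library far from the other 4, 10 were marked, where chance marks about 1 in 20. In dhelix FOXP2 + CHIR, replicate 5 was high for RPL11 (866 CPM), RPS18 (818 CPM) and RPL12 (684 CPM), and replicate 3 had a large minus small subunit difference of -0.112 on the log2 scale. In CHIR cells, replicate 1 was high for RPL5 (1455 CPM), RPS6 (1182 CPM) and RPL36A (18.9 CPM) and low for RPLP0 (2021 CPM). RPL5 was high in WT FOXP2 + CHIR replicate 4 (914 CPM) and low in dhelix FOXP2 replicate 5 (963 CPM). CHIR replicate 1, WT FOXP2 + CHIR replicate 4 and dhelix FOXP2 replicate 5 are the libraries that stood apart over all genes.

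The CHIR response differed between groups by interaction tests. It was lower than that in mock cells for 75 of 76 genes with dhelix FOXP2 and for 74 with WT FOXP2. Of all genes, 33.7% were lower and 31.2% higher with dhelix FOXP2, and 34.9% and 30.7% with WT FOXP2. Between dhelix and WT FOXP2 cells the response differed for 9 genes, 8 lower (10.5%) and 1 higher (1.32%). The shares of all genes there were 5.29% and 8.92%, together 14.2%. Named genes with a difference from mock cells were RPL17 (-1.03), RPL36A (-0.99), RPL26 (-0.88) and RPLP2 (-0.18) with dhelix FOXP2, and RPL36A (-1.15), RPL17 (-0.82), RPL5 (-0.81) and RPS19 (-0.16) with WT FOXP2. Of these, RPS19 with WT FOXP2 (adjusted p = 0.0473) lost the call or its sign under 23 of 30 alternatives, among them DESeq2 (adjusted p = 0.0751) and 16 of the 20 that left out a library, with adjusted p between 8.1e-04 and 0.616. RPLP2 with dhelix FOXP2 (adjusted p = 0.0370) lost it under 12 of 30, among them total counts (-0.03, adjusted p = 0.719) and 9 of the 20 that left out a library, with adjusted p between 2.5e-04 and 0.719. Between dhelix and WT FOXP2 cells they were RPL35 (-0.37) and RPS10 (-0.26).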

How the results depend on the processing

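Scaling to total counts in place of TMM moved the median of all genes by -0.10 for CHIR over mock, -0.12 for dhelix FOXP2 over mock, -0.16 for WT FOXP2 over mock, and by 0.14 and 0.20 in the interactions of dhelix and WT FOXP2. Under it the medians of the ribosomal protein genes were 0.42, 0.17 and -0.051 in those comparisons, 0.081 for WT FOXP2 + CHIR over WT FOXP2, 0.22 for dhelix over WT FOXP2, and -0.44, -0.29 and -0.13 for the interactions of dhelix FOXP2, WT FOXP2 and dhelix against WT FOXP2. WT FOXP2 over mock therefore reversed; less the all-gene median, the 3 mock comparisons gave 0.50, 0.30 and 0.13. Genes reversed under total counts were RPSA (-0.094), RPL10 (-0.0054) and RPS3 (-0.0023) for dhelix FOXP2 over mock, RPS3 (-0.15), RPS6 (-0.10), RPL22 (-0.054) and RPS4X (-0.035) for WT FOXP2 over mock, and RPS19 (0.040) for the WT FOXP2 interaction. With no filter the medians were 0.36 for dhelix FOXP2 over mock, -0.15 for dhelix FOXP2 + CHIR over dhelix FOXP2, 0.22 for dhelix over WT FOXP2, and -0.65 and -0.15 for the interactions of dhelix FOXP2 and of dhelix against WT FOXP2. Keeping genes with a mean of at least 1 CPM gave 0.47 for CHIR over mock, -0.34 for WT FOXP2 + CHIR over CHIR, and -0.53 and -0.41 for the dhelix and WT FOXP2 interactions. For dhelix FOXP2 + CHIR over dhelix FOXP2, 53 genes were called with no filter, 54 in a fit of the compared groups and 50 without the 3 libraries that stood apart (median -0.11); for dhelix FOXP2 + CHIR over WT FOXP2 + CHIR 15 were called with no filter. The interaction between dhelix and WT FOXP2 had 9 genes in the main fit, against 14.2% of all genes. It gave 26 under total counts (13.6% of all genes), 15 under TMM without these genes (13.5%) and 27 with no filter (5.42%). There were 17 at 1 CPM (17.3%) and 40 in a fit of the compared groups (23.1%). DESeq2 gave 15 (15.1%), and leaving out the 3 libraries 27 (20.6%). The cause of these changes was not tested.

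Leaving out 1 library gave medians of 0.48 to 0.51 for CHIR over mock, -0.40 to -0.34 for WT FOXP2 + CHIR over CHIR and -0.51 to -0.45 for the WT FOXP2 interaction; calls ranged from 18 to 35 for dhelix FOXP2 + CHIR over WT FOXP2 + CHIR and from 8 to 21 for the interaction of dhelix against WT FOXP2, with 18 and 21 both without WT FOXP2 + CHIR replicate 1. Of 266 results for single genes, 231 kept call and sign whichever library was left out. Whether replicate numbers pair the libraries was not settled. Of 75 pairs with the same number 1 correlated over 0.1, and 10 of 30 libraries correlated best with their own number. With group means removed, the median correlation was 0.0073 for the same number and 5.3e-05 for other numbers. Values this near 0 cannot show whether a weak pairing exists. With a replicate block 289 of 290 results kept their direction and call, RPL41 (-0.17, adjusted p = 0.0460) gaining one in the interaction of dhelix against WT FOXP2. Each tested gene had at least 134 counts in every library.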

Other observations

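The symbol rule leaves out paralogues of ribosomal proteins, of which 8 were tested. With CHIR alone 5 rose and 1 fell relative to mock (median 0.37; of all genes 38.8% rose and 35.3% fell), and relative to CHIR alone 5 rose and 3 fell with dhelix FOXP2 and CHIR (0.27), and 5 rose and 2 fell with WT FOXP2 and CHIR (0.31). Of all genes, 37% rose and 38.9% fell with dhelix FOXP2 and CHIR, and 38.2% and 40.2% with WT FOXP2 and CHIR. Whether they differ from the family was not tested. RPL22L1, the paralogue of RPL22, rose by 1.23 ± 0.09 with CHIR alone relative to mock (adjusted p = 4.3e-14), and relative to CHIR alone it fell by 0.83 ± 0.09 with dhelix FOXP2 and by 0.91 ± 0.09 with WT FOXP2. RPL26L1, the paralogue of RPL26, rose by 0.62 ± 0.07 with CHIR alone, by 1.42 ± 0.06 with dhelix FOXP2 and by 1.44 ± 0.07 with WT FOXP2, and relative to CHIR alone by 1.02 ± 0.06 and 1.12 ± 0.06. RPS27L, a paralogue of RPS27 induced by p53, fell by 0.44 ± 0.05 with dhelix FOXP2 and by 0.76 ± 0.05 with WT FOXP2 relative to mock. These adjusted tests are edgeR's quasi-likelihood tests over all genes.

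The mitochondrial ribosome, whose proteins are also encoded in the nucleus, was measured through 75 tested genes. With CHIR alone 67 rose and 2 fell (median 0.57), with dhelix FOXP2 70 rose and 1 fell (0.70) and with WT FOXP2 68 rose and 2 fell (0.70), relative to mock; of all genes 38.8%, 39.6% and 39.9% rose and 35.3%, 40.9% and 41.7% fell in those comparisons. Relative to CHIR alone, 43 rose and 9 fell with dhelix FOXP2 and CHIR (0.15; of all genes 37% rose and 38.9% fell), and 45 rose and 10 fell with WT FOXP2 and CHIR (0.19; 38.2% and 40.2%), where most cytosolic ribosomal protein genes fell. MRPL15 rose by 1.36 ± 0.04 with CHIR alone, by 1.28 ± 0.04 with dhelix FOXP2 and by 1.38 ± 0.04 with WT FOXP2. Whether the mitochondrial and cytosolic lists differ was not tested.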
